A study of Mus musculus with 9 samples.

Results

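Day 6 cytotoxic T lymphocytes (CTL) treated with KU-0063794, an inhibitor of the kinase mTOR, were compared with CTL that received the solvent DMSO. The comparison was between 6 of the 9 arrays of the series, 3 per group, in a fit of all 9. It covered 13278 of the 18193 genes with a probe set of their own, each read from the probe set with the highest mean over the 9 arrays. Genes at or below the 40th percentile of all probe sets, 0.31 log2, were not tested. The cells came from mice that carry the P14 T cell receptor transgene and are otherwise labelled wild type. The transgene gives their CD8 T cells 1 receptor specificity, for the peptide gp33-41 of lymphocytic choriomeningitis virus. Every culture was activated for 48 h with that peptide, interleukin 2 and interleukin 12, washed, and kept for a further 96 h. DMSO alone, 1 uM KU-0063794 or, in the remaining 3 arrays, 20 nM rapamycin was present for the last 48 h. A replicate is 1 spleen, and the cultures with the same replicate number came from the same spleen, so each KU-0063794 array has a DMSO partner. The age and sex of the mice are not given in the sources used here, and all cells were grown in vitro. With 3 spleens, the p-values measure the spread between these cultures.

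mTOR is a serine/threonine kinase found in 2 complexes. Complex 1, which contains Raptor, promotes protein, lipid and nucleotide synthesis and glycolysis, in part through the transcription factors ATF4, SREBP and HIF-1. Complex 2, which contains Rictor, phosphorylates AKT and SGK kinases and so acts on the FOXO transcription factors. Rapamycin acts, with FKBP12, mainly on complex 1, whereas KU-0063794 competes with ATP at the kinase and acts on both complexes. In CD8 T cells mTOR activity is known for its part in effector differentiation, in which cells make granzymes, perforin and interferon gamma and change their homing receptors.

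On all 6 arrays the CD8 T cell identity of the cells was visible, since the 13 of 13 measured genes of that list, which holds the CD3 and CD8 chains, lay above the background level. That level, 1.44 log2, is the 95th percentile of 31 genes restricted to other tissues. Array medians were 0.48 to 0.50 log2, and 29.3% to 29.8% of probe sets lay above background on each of these arrays. The difference between the 3′ and the 5′ probe sets of the actin control, a measure of RNA integrity, was 0.49 to 0.65 log2 in DMSO and 0.65 to 0.70 in KU-0063794 cultures, and was higher with KU-0063794 in each spleen. That of the Gapdh control was -0.21 to 0.04 in DMSO and -0.22 to -0.03 in KU-0063794 cultures, and was lower with KU-0063794 in each spleen. The part of RNA integrity in the results was not tested.

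With KU-0063794, genes of granzymes and interferon gamma showed the largest decreases. Genes called in the lists for amino acid supply, sterol synthesis, glycolysis and the hypoxia response were mostly lower, and those for mitosis and DNA replication were all higher, by smaller amounts. In the limma fit with the spleen as a block, 1644 of 13278 genes passed at an adjusted p of 0.05, which is 12.4% of those tested. Of these, 866 were higher (6.52%) and 778 were lower (5.86%) with KU-0063794. The counts for each gene list below are to be read beside these shares. Of the 13278 genes tested 7951 lay above background, and only 58 of the 1644 called genes lay below it in both groups. Most lists hold mainly genes above background, so shares over all genes tested are a low reference for them. A list share above 12.4%, 6.52% or 5.86% is therefore not by itself an excess over other expressed genes. Changes of at least 2-fold were mostly decreases, with 90 genes lower (0.678%) and 14 higher (0.105%). The median log2 fold change was 0.45 among the higher and -0.50 among the lower genes, against 0.01 over all genes tested and a median SE of 0.09. The 3 DMSO and 3 KU-0063794 values did not overlap for 1298 of the 1644 genes, against 20.2% of all genes tested. In 1643 of the 1644 genes the sign was the same in all 3 spleens. The calls were made from these same paired differences, so this count is not separate support.

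The number of genes called rested on the pairing by spleen, on single arrays and on the rapamycin arrays, which took part in the fit. In a fit of the 6 arrays compared 624 genes passed, 302 higher and 322 lower. Without the block 540 genes passed (4.07%), 303 higher (2.28%) and 237 lower (1.78%), all of them among the 1644. At least 2-fold, 6 were higher (0.0452%) and 56 lower (0.422%) without it. Leaving out the DMSO array of spleen 1 left 659 genes, and that of spleen 3 left 977. Leaving out the KU-0063794 array of spleen 1, 2 or 3 left 633, 902 and 776 genes. For single genes below, the p without the block is printed where the call was lost without it. Each gene named with a test kept its call when any 1 of the 9 arrays was left out, unless stated otherwise.

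**Figure D1:**
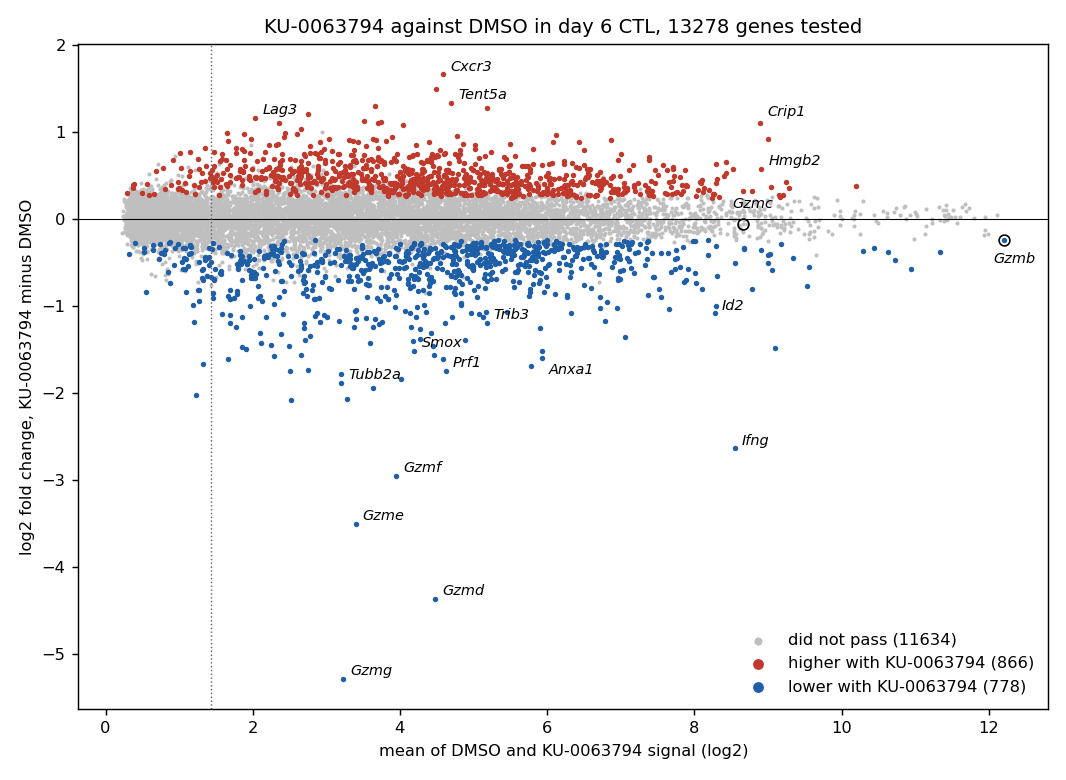
Log2 fold change of KU-0063794 against DMSO (vertical axis) by mean log2 signal of the 2 groups (horizontal axis) for 13278 genes, with 866 higher genes in red, 778 lower genes in blue and the background level as a dotted line. The 4 lowest points are Gzmg, Gzmd, Gzme and Gzmf, and the open circles mark Gzmb and Gzmc, which lie near 0.

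The deepest decreases were in 4 granzyme genes of 1 cluster. Granzymes are serine proteases that cytotoxic cells store in granules and release into target cells through pores made by perforin. Gzmb and its relatives Gzmc, Gzmd, Gzme, Gzmf, Gzmg and Gzmn lie next to each other on chromosome 14, between positions 56117619 and 56262334 of GRCm38.p6. A stretch of the promoters of Gzmc, Gzmd, Gzme, Gzmf and Gzmg is shown because it was alike in all 5 while 4 of the genes fell and Gzmc did not pass. The stretches are from RefSeq's GRCm38.p6 promoters, from the minus strand, 5′ to 3′, and capitals mark the octamer at the place of the cyclic AMP response element TGACGTCA.
Gzmc: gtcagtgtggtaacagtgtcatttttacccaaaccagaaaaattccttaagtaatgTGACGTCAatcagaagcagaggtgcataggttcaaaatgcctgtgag
Gzmd: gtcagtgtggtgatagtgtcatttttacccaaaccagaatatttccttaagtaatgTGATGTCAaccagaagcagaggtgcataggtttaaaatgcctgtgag
Gzme: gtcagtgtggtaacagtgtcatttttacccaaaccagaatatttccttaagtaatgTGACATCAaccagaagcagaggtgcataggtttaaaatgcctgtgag
Gzmf: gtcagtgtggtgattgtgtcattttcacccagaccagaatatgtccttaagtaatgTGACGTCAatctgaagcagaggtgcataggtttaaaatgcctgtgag
Gzmg: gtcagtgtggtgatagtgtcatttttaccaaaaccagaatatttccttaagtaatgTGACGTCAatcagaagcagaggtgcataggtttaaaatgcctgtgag
These windows lie at chr14:56234668-56234770, chr14:56132608-56132710, chr14:56120641-56120743, chr14:56211443-56211545 and chr14:56159610-56159712, in that order. They were 90.3% to 97.1% identical over 103 bases, and the Gzmc window shared 90.3% to 95.1% of its bases with the other 4. The unbroken octamer TGACGTCA stood in the windows of Gzmc, Gzmf and Gzmg, and in 2.88% of the promoters of genes tested and 1.77% of all promoters in the table. Over the full 250 bases before the start, the promoters of these 5 genes were 70.2% to 94.8% identical to each other, and that of Gzmb was 43.8% to 48.0% identical to them.

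Gzmg read 7.40, 4.83 and 5.38 log2 in the DMSO cultures of spleens 1, 2 and 3 and 0.83, 0.40 and 0.54 in the KU-0063794 cultures. The groups lay far apart, and no KU-0063794 array was above background, so the fold is a bound. Set against the background level, Gzmg was at least 21.6-fold lower, and the fitted difference had an adjusted p of 0.000687 in limma. Gzmd fell from 8.07, 5.76 and 6.16 log2 to 3.06, 2.31 and 1.53, a 20.6-fold decrease (log2 fold change -4.36, SE 0.31, adjusted p = 0.000809). Gzme fell from 6.55, 4.28 and 4.61 log2 to 2.36, 1.37 and 1.21 (log2 fold change -3.50, SE 0.23, adjusted p = 0.000643), and only 1 of its 3 KU-0063794 arrays was above background. Gzmf fell from 6.48, 4.47 and 5.31 log2 to 2.89, 2.39 and 2.13 (log2 fold change -2.95, SE 0.25, adjusted p = 0.0013). In each of these 4 genes all DMSO values lay above all KU-0063794 values, and spleen 1 had the highest DMSO value.

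Gzmc, whose promoter window is shown above, read 9.23, 8.17 and 8.67 log2 in DMSO and 8.85, 8.27 and 8.77 in KU-0063794 cultures. The groups overlapped, and the difference did not pass (log2 fold change -0.06, 95% interval -0.33 to 0.21, adjusted p = 0.815). Without the DMSO array of spleen 1 it was 0.09, and without the KU-0063794 array of spleen 1 it was 0.04. Gzmb, the main granzyme of mouse CTL, read 12.38, 12.27 and 12.34 log2 in DMSO and 12.12, 12.01 and 12.14 with KU-0063794, a log2 fold change of -0.24 that passed only at the edge (adjusted p = 0.0482). That call was lost without any 1 of the 9 arrays and without the block (adjusted p = 0.139). Gzmn was at background in both groups, with values from -0.15 to 0.21 log2 and no test. Transcripts of Gzmd, Gzme, Gzmf and Gzmg may share probes, and how far 1 probe set reads its neighbours' transcripts was not tested.

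Perforin and a lysosomal protease fell as well. Prf1, the pore former, read 6.79, 4.88 and 4.81 log2 in DMSO and 4.77, 3.42 and 3.05 with KU-0063794. The groups did not overlap, though the lowest DMSO value, 4.81, was near the highest KU-0063794 value, 4.77, which came from another spleen. Within spleens the decrease was 3.35-fold (log2 fold change -1.74, SE 0.19, adjusted p = 0.00226), and the call was lost without the block (adjusted p = 0.244) and with the spleen as a random block (adjusted p = 0.0685). Ctsd, the lysosomal protease cathepsin D, read 7.70, 6.99 and 7.19 log2 in DMSO and 6.41, 6.32 and 6.30 with KU-0063794 (log2 fold change -0.95, SE 0.12, adjusted p = 0.00338), with no overlap. Of the 35 tested genes for granzymes, perforin and granule machinery, 14 were lower, 2 were higher and 19 did not pass, with a median of -0.24 against 0.01 over all genes. Without the block 6 were lower and none higher. The 2 that were higher, Lamp1 and Ctsw, lost their call in 9 and 7 of the 9 fits without 1 array. In these bulk samples fewer cells of a type and less RNA per cell cannot be told apart.

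**Figure D2:**
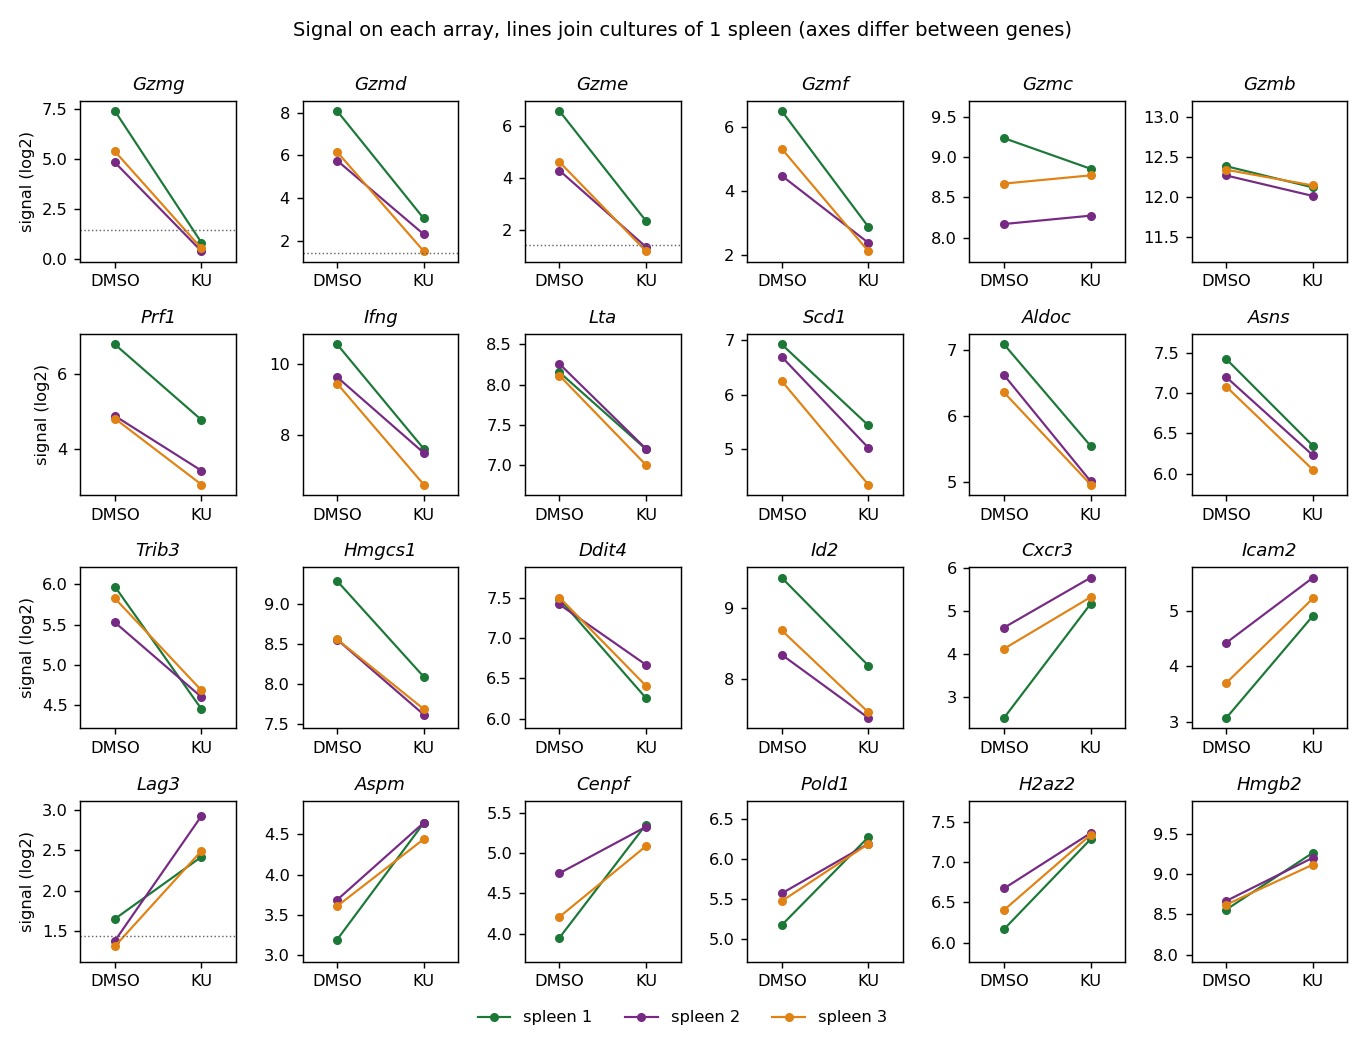
Log2 signal of 24 genes on the DMSO and KU-0063794 arrays, with a line for each of the 3 spleens, the background level dotted where it is in range, and vertical axes that differ between genes. All 3 lines fall for Gzmg, Gzmd, Gzme, Gzmf and Ifng and rise for Cxcr3, Icam2, Lag3 and Aspm, while those of Gzmc lie nearly level.

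Interferon gamma showed the deepest decrease among the cytokines. Ifng read 10.54, 9.62 and 9.44 log2 in DMSO and 7.60, 7.49 and 6.60 in KU-0063794 cultures, a 6.21-fold decrease (log2 fold change -2.63, SE 0.17, adjusted p = 0.000643). The lowest DMSO array lay well above the highest KU-0063794 array. Lta, which encodes lymphotoxin alpha, read 8.15, 8.26 and 8.11 log2 in DMSO and 7.198, 7.204 and 7.003 with KU-0063794 (log2 fold change -1.04, SE 0.08, adjusted p = 0.000843), again without overlap. Tnf, the tumour necrosis factor gene, fell by 0.48 (adjusted p = 0.00657), and lost its call without the block (adjusted p = 0.177). The cytokine Il24 fell by 0.90 (adjusted p = 0.00338) and also lost it without the block (adjusted p = 0.103). Of 23 tested cytokine and chemokine genes 6 were lower and none was higher, and the median was -0.09. Without the block 3 were lower.

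Among surface receptors the changes went both ways. Cxcr3, a chemokine receptor that guides effector and memory T cells into inflamed tissue, was the gene with the largest increase among those called, from 2.52, 4.61 and 4.12 log2 to 5.16, 5.77 and 5.32 (log2 fold change 1.66, SE 0.27, adjusted p = 0.00812). All KU-0063794 values lay above all DMSO values, but the call was lost without the block (adjusted p = 0.0927) and in a fit of the 6 arrays alone (adjusted p = 0.0616). Icam2, an adhesion ligand of the integrin LFA-1, rose from 3.08, 4.43 and 3.71 log2 to 4.90, 5.59 and 5.22 (log2 fold change 1.50, SE 0.13, adjusted p = 0.0013), with no overlap. Gpr183, an oxysterol receptor that guides lymphocyte migration, fell from 5.74, 5.47 and 5.67 log2 to 4.34, 4.49 and 4.76 (log2 fold change -1.10, SE 0.10, adjusted p = 0.00141). Cd69, an activation marker that retains T cells in tissue, fell by 1.06 (adjusted p = 0.0017), and the integrin alpha V gene Itgav fell by 0.88 (adjusted p = 0.00195). The integrin beta 3 gene Itgb3 fell by 1.19 (adjusted p = 0.0017), with overlapping groups, 1 of 3 KU-0063794 arrays above background and no call without the block (adjusted p = 0.142). Over all genes tested 6.52% were higher and 5.86% lower. Of 35 tested genes of homing, chemokine receptors and adhesion, 4 were higher (11.4%) and 7 lower (20.0%), 1 and 3 without the block. Without the DMSO array of spleen 1 or any 1 KU-0063794 array 2 were higher. Ccr7, the receptor that directs naive T cells to lymph nodes, differed by 0.39 and did not pass (adjusted p = 0.105). S1pr1, which guides T cells out of lymph nodes, was below background on all 6 arrays.

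Lag3, an inhibitory receptor that binds MHC class II, rose from 1.65, 1.38 and 1.31 log2 to 2.42, 2.93 and 2.49 (log2 fold change 1.17, SE 0.20, adjusted p = 0.00992), with no overlap. Of its 3 DMSO arrays 1 was above background, so the starting level was not well measured. Cd27, a costimulatory receptor of the TNF receptor family, rose by 0.85 (adjusted p = 0.00387). Tnfrsf9, which encodes the costimulatory receptor 4-1BB, fell by 0.77 (adjusted p = 0.00372) within spleens, while its groups overlapped. It lost its call without the block (adjusted p = 0.635) and with a random block (adjusted p = 0.382). Slamf7, a receptor of the SLAM family, fell by 0.82 (adjusted p = 0.00181; 0.111 without the block). Of 33 tested activating, inhibitory and TNF family receptors, 5 were higher and 7 lower, and without the block 3 were higher and 1 lower. The count of lower genes was 3 without the DMSO array of spleen 1 or the KU-0063794 array of spleen 1 or 3. The count of higher genes was 3 without the DMSO array of spleen 2 or 3 or any KU-0063794 array. Pdcd1, which encodes the inhibitory receptor PD-1, was lower, at a log2 fold change of -0.51 (adjusted p = 0.0342), and this call was lost in 6 of the 9 fits without 1 array and without the block (adjusted p = 0.0779).

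Of the cytokine receptor genes called, most were lower. Il1r2, a decoy receptor for interleukin 1, read 3.29, 2.60 and 3.02 log2 in DMSO and 1.44, 1.54 and 1.58 with KU-0063794 (log2 fold change -1.45, SE 0.18, adjusted p = 0.00378), without overlap and with 2 of the 3 KU-0063794 arrays above background. Il12rb1, a chain of the interleukin 12 receptor, fell by 0.79 (adjusted p = 0.00474), and Tgfbr2, a chain of the TGF beta receptor, fell by 0.75 (adjusted p = 0.00328). Stat3, which carries signals of several of these receptors, fell by 0.68 (adjusted p = 0.0017; 0.12 without the block). Over all genes tested 5.86% were lower and 6.52% higher. In all, 8 of 41 tested cytokine receptor and JAK-STAT genes were lower (19.5%) and 1 was higher (2.44%). Of them 3 were lower and none higher without the block, and 5 were lower without the KU-0063794 array of spleen 1. The chains Il2ra and Il7r, of the interleukin 2 and interleukin 7 receptors, differed by -0.14 (adjusted p = 0.283) and -0.06 (adjusted p = 0.742) and did not pass. The Il7r difference was 0.05 without the DMSO array of spleen 1.

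Of 56 tested transcription factors of T cell differentiation 14 were lower and 3 higher. Id2, which restrains E proteins and favours effector cells, read 9.42, 8.35 and 8.69 log2 in DMSO and 8.19, 7.46 and 7.54 with KU-0063794 (log2 fold change -1.08, SE 0.08, adjusted p = 0.000843). Its groups did not overlap, and its call was lost without the block (adjusted p = 0.105). Mxd1, a partner of MAX that opposes MYC, fell from 4.92, 3.51 and 4.29 log2 to 3.68, 2.56 and 3.04 within spleens (log2 fold change -1.15, SE 0.10, adjusted p = 0.0013), with overlapping groups and no call without the block (adjusted p = 0.162). Without the block 1 factor was lower and none higher. The count of lower factors was 6 without the DMSO array of spleen 1, 7 without the KU-0063794 array of spleen 1, and 9 without the DMSO array of spleen 3 or the KU-0063794 array of spleen 2. No higher factor was left without the DMSO array of spleen 1 or any 1 KU-0063794 array, and 1 without the DMSO array of spleen 3 or the rapamycin array of spleen 1. Tbx21 and Eomes, which encode the effector and memory factors T-bet and Eomesodermin, differed by 0.04 (adjusted p = 0.845) and -0.07 (adjusted p = 0.739) and did not pass. Without the DMSO or the KU-0063794 array of spleen 2 the Tbx21 difference was -0.06 and -0.03.

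In T cell receptor signalling 8 of 50 tested genes were lower and 5 higher, 2 and none without the block. Dusp5, a phosphatase of ERK, fell by 0.61 (adjusted p = 0.0042), and Sla2, an adaptor that dampens receptor signals, fell by 0.61 (adjusted p = 0.00342). In both the groups overlapped. Both calls were lost without the block (adjusted p = 0.288 and 0.243) and with a random block (adjusted p = 0.0913 and 0.0692). Ptpn6, the phosphatase SHP-1, rose by 0.40 (adjusted p = 0.00866; 0.149 without the block). Leaving out any 1 DMSO or KU-0063794 array left 1 to 3 higher genes, and all of these except the DMSO array of spleen 2 left 3 to 5 lower genes. So did the rapamycin array of spleen 1 or 2, each with 5. Cd8a differed by -0.14 (adjusted p = 0.307) and did not pass.

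Genes of the pathway that KU-0063794 targets were mostly among those that did not pass, 43 of 55 tested. In this list 9 were lower (16.4%) and 3 higher (5.45%), with a median of -0.03, and 6 and 1 without the block. Over all genes tested 5.86% were lower and 6.52% higher. The 9 lower genes included inhibitors of mTOR complex 1. Ddit4, whose product REDD1 restrains mTOR complex 1, read 7.48, 7.42 and 7.50 log2 in DMSO and 6.25, 6.67 and 6.41 with KU-0063794 (log2 fold change -1.02, SE 0.12, adjusted p = 0.0027). Sesn3, a sestrin, which links amino acid supply to mTOR, fell from 4.88, 4.43 and 5.03 log2 to 3.56, 3.46 and 3.96 (log2 fold change -1.12, SE 0.13, adjusted p = 0.0027). Eif4ebp1, which encodes the translation repressor 4E-BP1 that complex 1 phosphorylates, fell from 7.16, 6.91 and 6.53 log2 to 5.92, 6.01 and 5.44 (log2 fold change -1.08, SE 0.08, adjusted p = 0.000843). In these 3 genes no DMSO value reached down to a KU-0063794 value. Trib3, a pseudokinase known to bind AKT, was lower, at a log2 fold change of -1.20 (adjusted p = 0.0017), and Sesn1 fell by 0.67 (adjusted p = 0.00657). The genes of mTOR itself and of its complex subunits Raptor and Rictor differed by 0.16 (Mtor, adjusted p = 0.188), -0.00 (Rptor, 95% interval -0.26 to 0.26) and 0.38 (Rictor, adjusted p = 0.0594), and none passed. Rptor changed sign without the DMSO or the KU-0063794 array of spleen 1 (0.09 and 0.08) or the KU-0063794 array of spleen 2 (0.04). None of the 3 higher genes, Pik3ca, Rps6 and Pdcd4, passed without the DMSO array of spleen 1 or 2 or the KU-0063794 array of spleen 1 or 2.

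FOXO factors, which mTOR complex 2 holds in check through AKT, are known to drive quiescence genes. Of 37 tested FOXO targets and quiescence genes, 6 were lower (16.2%) and 3 higher (8.11%), 3 and 1 without the block, with a median of 0.00. Over all genes tested 5.86% were lower and 6.52% higher. Ccng2, an atypical cyclin linked with quiescence, rose from 4.10, 4.01 and 3.96 log2 to 4.69, 4.58 and 4.83 (log2 fold change 0.68, SE 0.11, adjusted p = 0.00765), with no overlap. Bcl2l11, which encodes the death factor BIM, rose by 0.72 (adjusted p = 0.00803) within spleens while the groups overlapped. It lost its call without the block (adjusted p = 0.391), with a random block (adjusted p = 0.157) and in the 6 arrays alone (adjusted p = 0.0586). Tob1 and Btg1, related genes that restrain proliferation, fell by 0.81 (adjusted p = 0.00789) and by 0.70 (adjusted p = 0.00222; 0.143 without the block). The FOXO targets Klf2 (0.35, adjusted p = 0.152) and Irs2 (0.26, adjusted p = 0.088) did not pass, nor did Foxo1 (-0.36, adjusted p = 0.0626). Pik3ip1, an inhibitor of PI3K, differed by less than 0.01 (95% interval -0.25 to 0.25) and did not pass. Its sign turned without the DMSO array of spleen 2 (0.14) or the KU-0063794 array of spleen 2 or 3 (0.08 and 0.001).

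Most targets of ATF4 on the list were lower. ATF4 is a transcription factor whose translation rises under stress and with mTOR complex 1 activity, and its targets include enzymes of amino acid synthesis, transporters and tRNA synthetases. Of 36 tested genes of the ATF4 and integrated stress list 24 were lower and none was higher, with a median of -0.45. The list shares 9 genes with the amino acid transporters and 4 with the mTOR and PI3K pathway. Without the block 13 were lower, and without the DMSO array of spleen 1 there were 14. The promoters of 5 of the lower genes are shown for their match to the ATF4 composite site TGATGNAA, in capitals. Each stretch is printed 5′ to 3′ along its gene's strand, so a match on the other strand reads as its reverse complement.
Asns: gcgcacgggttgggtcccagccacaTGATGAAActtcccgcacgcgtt
Chac1: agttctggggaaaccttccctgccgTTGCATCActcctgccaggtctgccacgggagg
Nupr1: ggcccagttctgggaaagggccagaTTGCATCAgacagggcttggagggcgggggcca
Aars: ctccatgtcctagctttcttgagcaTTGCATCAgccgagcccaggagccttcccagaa
Gars: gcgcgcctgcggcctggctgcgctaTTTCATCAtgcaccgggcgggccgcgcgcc
They lie at chr6:7693210-7693257 (minus strand), chr2:119351024-119351081 (plus), chr7:126625548-126625605 (minus), chr8:111033705-111033762 (plus) and chr6:55037946-55038000 (plus) of GRCm38.p6. The motif, searched on both strands in the 250 bases before the start, stood in 5 of the 20 lower genes of the list with a promoter in the table and in 1 of 11 that did not pass. It stood in 3 of 5 lower tRNA synthetase genes, Aars and Gars among them, and in 0 of 22 that did not pass, against 2.49% of the genes tested and 3.91% of all promoters. The Gars call (adjusted p = 0.0195) was lost in 5 of the 9 fits without 1 array.

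Asns, asparagine synthetase, read 7.42, 7.20 and 7.08 log2 in DMSO and 6.35, 6.23 and 6.05 in KU-0063794 cultures (log2 fold change -1.02, SE 0.07, adjusted p = 0.000643). The groups did not overlap, and the call was kept under all 25 alternatives. Nupr1, a stress-induced chromatin protein, fell from 3.26, 1.81 and 2.90 log2 to 1.58, 0.87 and 1.05 (log2 fold change -1.49, SE 0.19, adjusted p = 0.00417), and 1 of its 3 KU-0063794 arrays was above background. Slc7a3, a transporter of cationic amino acids, fell from 4.72, 3.87 and 3.67 log2 to 2.62, 2.05 and 2.25, the deepest change of the list (log2 fold change -1.78, SE 0.15, adjusted p = 0.0013). The groups of both lay apart. Atf4 itself fell by a smaller amount, from 8.26, 8.07 and 7.94 log2 to 7.66, 7.51 and 7.43 (log2 fold change -0.55, SE 0.06, adjusted p = 0.0027). Chac1, a glutathione-degrading enzyme, was lower, at a log2 fold change of -0.71 (adjusted p = 0.0446), a call lost in 6 of the 9 fits without 1 array and without the block (adjusted p = 0.231). Mthfd2, an enzyme of mitochondrial folate metabolism, fell by 0.55 (adjusted p = 0.00547; 0.0683 without the block).

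Of 36 tested aminoacyl-tRNA synthetase genes, which charge tRNAs for translation, 7 were lower (19.4%) and none higher, with a median of -0.04. Over all genes tested 5.86% were lower and 6.52% higher. Nars, for asparagine, read 7.44, 7.14 and 7.31 log2 in DMSO and 6.75, 6.51 and 6.61 with KU-0063794 (log2 fold change -0.67, SE 0.07, adjusted p = 0.00172), and Sars, for serine, fell by 0.61 (adjusted p = 0.00195). Cars, for cysteine, fell by 0.68 (adjusted p = 0.00329; 0.088 without the block), and Aars, for alanine, fell by 0.46 (adjusted p = 0.00657). The list holds cytosolic and mitochondrial synthetases, and without the block, or without the DMSO array of spleen 1 or 3 or any 1 KU-0063794 array, 4 were lower. Of 24 tested amino acid transporter genes 5 were lower and 1 was higher, 3 and none without the block, with a median of -0.01. The lower ones included Slc6a6, for taurine (-0.52, adjusted p = 0.0041), and Slc1a5, for glutamine (-0.50, adjusted p = 0.0055). With the most variable probe set of each gene neither passed (Slc6a6 adjusted p = 0.054), and Slc1a5 changed sign to 0.13. With the mean of all probe sets Slc1a5 did not pass (adjusted p = 0.143).

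The polyamine and arginine genes called went both ways. Smox, spermine oxidase, read 5.10, 4.66 and 5.10 log2 in DMSO and 3.39, 3.30 and 3.64 with KU-0063794 (log2 fold change -1.51, SE 0.13, adjusted p = 0.0013). Sat1, which acetylates spermidine and spermine, fell from 4.98, 4.68 and 4.51 log2 to 3.86, 4.01 and 3.86 (log2 fold change -0.82, SE 0.13, adjusted p = 0.00789). In both the groups did not overlap. Of the 16 tested polyamine and arginine genes 4 were lower and 3 higher, 3 and 1 without the block. Leaving out the DMSO array of spleen 1 left 2 lower genes, and no fit without 1 DMSO or KU-0063794 array kept all 3 higher ones.

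Genes of cholesterol synthesis fell by up to a log2 fold change of -0.99. SREBP2, which senses sterol supply, drives most of these genes through sterol regulatory elements. Of 29 tested genes of sterol synthesis and uptake 16 were lower and 1 higher, with a median of -0.33. Without the block 9 were lower, and leaving out 1 array left 13 to 16. Hmgcs1, which makes HMG-CoA, read 9.28, 8.55 and 8.56 log2 in DMSO and 8.09, 7.62 and 7.69 with KU-0063794 (log2 fold change -0.99, SE 0.08, adjusted p = 0.0013). Mvd, mevalonate decarboxylase, fell from 4.98, 4.77 and 4.73 log2 to 4.09, 3.67 and 3.75 (log2 fold change -0.99, SE 0.09, adjusted p = 0.0013). Cyp51, lanosterol demethylase, fell from 6.76, 6.43 and 6.44 log2 to 5.83, 5.54 and 5.69 (log2 fold change -0.86, SE 0.08, adjusted p = 0.00134). In these 3 genes the groups did not overlap. Tm7sf2, a sterol reductase, fell by 0.89 (adjusted p = 0.0017), with 2 of 3 KU-0063794 arrays above background. Srebf2 and Srebf1, which encode SREBP2 and SREBP1, differed by -0.09 (adjusted p = 0.442) and -0.02 (adjusted p = 0.884) and did not pass. The sign of Srebf1 turned without the KU-0063794 array of spleen 3 (0.03).

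The Hmgcs1 promoter is shown for its sterol regulatory element TCACNCCAC, in capitals, at chr13:119690189-119690247 on the plus strand of GRCm38.p6.
Hmgcs1: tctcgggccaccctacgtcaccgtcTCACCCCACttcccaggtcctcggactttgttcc
It was the only 1 of 12 lower sterol genes with a promoter in the table to hold this exact motif, against 1.29% of genes tested and 1.22% of all promoters. The CCAAT box, a site for the factor NF-Y, was searched as CCAAT on both strands. It stood in 12 of these 12 promoters and in 8 of the 11 of sterol genes that did not pass, against 39.5% of genes tested and 37.5% of all promoters.

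In fatty acid synthesis 10 of 30 tested genes were lower and 1 higher, with a median of -0.18. Scd1, the desaturase that makes oleate, read 6.93, 6.70 and 6.25 log2 in DMSO and 5.44, 5.02 and 4.35 with KU-0063794 (log2 fold change -1.69, SE 0.09, adjusted p = 0.000406). The DMSO and KU-0063794 values lay far apart. Its paralog Scd2 fell by 0.59 (adjusted p = 0.00495; 0.103 without the block), and Acsl4, which activates long fatty acids, fell by 0.75 (adjusted p = 0.0056; 0.156 without the block). Without the block 2 genes were lower, and there were 6 without the DMSO array of spleen 1 or 3 and 5 without the KU-0063794 array of spleen 1. In fatty acid oxidation 6 of 30 genes were lower and 1 higher, and 2 and none passed without the block. Slc25a20, the carnitine carrier, fell by 0.59 (adjusted p = 0.00661), but not with the most variable probe set (adjusted p = 0.101). Leaving out the DMSO array of spleen 1 or 3 or the KU-0063794 array of spleen 1 left 2 lower oxidation genes, and leaving out the KU-0063794 array of spleen 2 left 3.

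The glycolysis genes called were all lower, as were the hypoxia response genes called except 1. HIF-1 binds the core ACGTG and drives glucose transporters, glycolytic enzymes and collagen hydroxylases, and in T cells it is active under normal oxygen when mTOR is. Of 27 tested glycolysis genes 12 were lower and none higher, with a median of -0.29. Of 36 hypoxia response genes, 4 of them shared with the first list, 16 were lower and 1 higher, with a median of -0.35. Without the block 3 of each were lower. Without the DMSO array of spleen 1 there were 7 lower glycolysis genes, and leaving out 1 array left 11 to 16 lower hypoxia genes. The promoters of Egln3, P4ha2 and Aldoa are shown with a core in capitals, on either strand.
Egln3: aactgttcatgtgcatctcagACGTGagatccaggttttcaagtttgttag
P4ha2: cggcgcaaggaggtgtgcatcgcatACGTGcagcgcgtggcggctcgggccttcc
Aldoa: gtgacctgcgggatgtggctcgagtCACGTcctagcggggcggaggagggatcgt
They lie at chr12:54204074-54204124 (minus strand), chr11:54100821-54100875 (plus) and chr7:126799351-126799405 (minus) of GRCm38.p6. The core stood in 11 of the 13 lower hypoxia genes with a promoter in the table and in 8 of the 17 that did not pass. Among glycolysis genes it stood in 8 of the 11 lower ones and in 7 of the 15 that did not pass. The share was 24.1% of genes tested and 18.5% of all promoters.

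P4ha2, a collagen prolyl hydroxylase, read 3.78, 3.35 and 2.52 log2 in DMSO and 1.78, 2.08 and 1.44 with KU-0063794 (log2 fold change -1.45, SE 0.20, adjusted p = 0.00509; adjusted p = 0.0633 without the block). Ero1a, which oxidises disulphide bonds in the endoplasmic reticulum, fell from 8.31, 7.62 and 7.25 log2 to 6.58, 6.53 and 6.02 (log2 fold change -1.35, SE 0.16, adjusted p = 0.00339). Egln3, a prolyl hydroxylase that marks HIF for destruction, fell from 6.46, 6.11 and 5.39 log2 to 5.07, 5.12 and 4.54 (log2 fold change -1.07, SE 0.10, adjusted p = 0.0017; adjusted p = 0.0861 without the block). The groups did not overlap in any of these 3. Aldoc, an aldolase of glycolysis, fell from 7.09, 6.62 and 6.36 log2 to 5.54, 5.01 and 4.96 (log2 fold change -1.52, SE 0.17, adjusted p = 0.00248), and its paralog Aldoa fell by 0.76 (adjusted p = 0.0013; 0.0594 without the block). Slc2a3, a glucose transporter, fell from 7.23, 6.51 and 5.87 log2 to 5.36, 5.57 and 4.91 (log2 fold change -1.25, SE 0.17, adjusted p = 0.00495; adjusted p = 0.0894 without the block). The transporter gene Slc2a1 fell by 0.58 (adjusted p = 0.0056), a call lost without the block (adjusted p = 0.217) and with a random block (adjusted p = 0.0605). Pfkp, a phosphofructokinase, fell by 0.66 (adjusted p = 0.00261). The higher gene of the hypoxia list was the histone demethylase gene Kdm3a (0.63, adjusted p = 0.00215). Hif1a differed by -0.14 (adjusted p = 0.331) and did not pass.

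**Figure D3:**
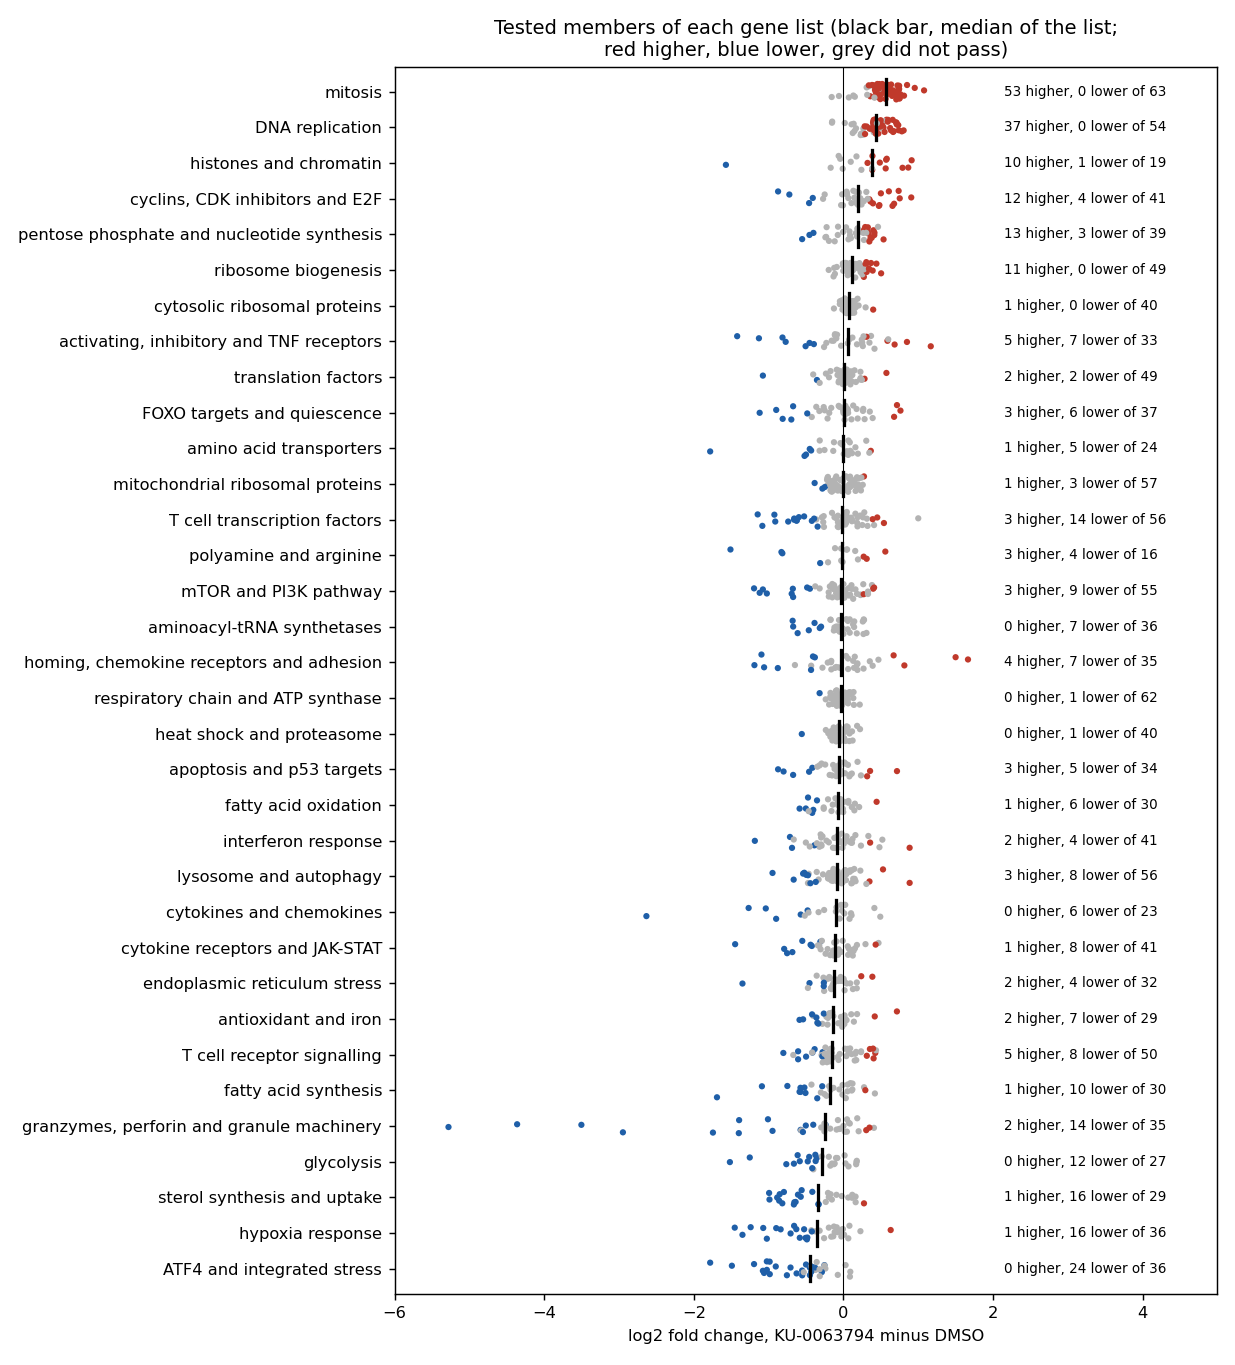
Log2 fold changes of KU-0063794 against DMSO (horizontal axis) for the tested members of 34 gene lists (rows, by median), with higher genes in red, lower in blue, those that did not pass in grey, and a black bar at each median. Mitosis lies at the top with 53 of 63 higher, and ATF4 and integrated stress at the bottom with 24 of 36 lower.

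Most of the tested genes of mitosis and DNA replication were higher. Of 63 tested mitosis genes 53 were higher and none lower with KU-0063794, with a median of 0.56 against 0.01 over all genes. Of 54 DNA replication genes 37 were higher and none lower, with a median of 0.43. Without the block 42 mitosis and 21 replication genes were higher. Without the DMSO array of spleen 1 the counts were 33 and 16, and without the KU-0063794 array of spleen 1 they were 29 and 16. Without the KU-0063794 array of spleen 2, 20 replication genes were higher. The cell cycle homology region TTTGAA, a site known in genes of late cell cycle, is shown in capitals in 4 promoters of the mitosis list.
Ccnb2: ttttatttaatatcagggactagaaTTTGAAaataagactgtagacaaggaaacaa
Cdc20: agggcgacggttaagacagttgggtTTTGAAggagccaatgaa
Cdk1: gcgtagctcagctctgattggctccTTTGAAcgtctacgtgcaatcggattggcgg
Ncapd2: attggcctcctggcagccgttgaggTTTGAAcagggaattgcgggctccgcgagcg
They lie at chr9:70421691-70421746, chr4:118437344-118437386, chr10:69352953-69353008 and chr6:125191679-125191734 of GRCm38.p6, all on the minus strand. The motif, searched on both strands, stood in 15 of the 45 higher mitosis genes with a promoter in the table and in 2 of the 8 that did not pass, against 12.7% of genes tested and 18.3% of all promoters. In replication genes it stood in 5 of 29 and 2 of 14. The CCAAT box stood in 32 of the 45 higher mitosis genes and in 4 of the 8 others.

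Aspm, which organises spindle poles, read 3.19, 3.69 and 3.61 log2 in DMSO and 4.64, 4.64 and 4.44 with KU-0063794, the largest increase of the mitosis list (log2 fold change 1.08, SE 0.14, adjusted p = 0.00397). Cenpf, a kinetochore protein, rose from 3.95, 4.75 and 4.21 log2 to 5.35, 5.32 and 5.09 (log2 fold change 0.95, SE 0.15, adjusted p = 0.0074), but did not pass in the 6 arrays alone (adjusted p = 0.0535). Ncapd2, a condensin subunit, rose from 4.34, 4.63 and 4.82 log2 to 5.37, 5.36 and 5.60 (log2 fold change 0.85, SE 0.09, adjusted p = 0.00191). No group overlapped in these 3 genes. Cdk1, the kinase that drives entry into mitosis, rose by 0.56 (adjusted p = 0.00657), and its cyclin gene Ccnb2 by 0.62 (adjusted p = 0.00569). Cdc20, which activates the ubiquitin ligase of mitotic exit, rose by 0.50 (adjusted p = 0.0073; 0.0509 in the 6 arrays alone). Kif20a, a kinesin of cytokinesis, rose by 0.81 (adjusted p = 0.00279).

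Pold1, the catalytic subunit of DNA polymerase delta, read 5.18, 5.57 and 5.48 log2 in DMSO and 6.27, 6.19 and 6.19 with KU-0063794 (log2 fold change 0.80, SE 0.11, adjusted p = 0.00495). Dscc1, which helps load the replication clamp, rose from 2.61, 2.82 and 2.63 log2 to 3.40, 3.71 and 3.29 (log2 fold change 0.78, SE 0.09, adjusted p = 0.00237). Neither gene's groups overlapped. Among 19 tested genes of histones and chromatin 10 were higher and 1 lower. H2az2, a histone H2A variant, rose from 6.17, 6.67 and 6.41 log2 to 7.28, 7.36 and 7.34 (log2 fold change 0.91, SE 0.10, adjusted p = 0.00261), H2ax by 0.79 (adjusted p = 0.00451), and Hmgb2, an abundant chromatin protein, by 0.58 (adjusted p = 0.00346). The lower gene was the linker histone H1f2, at 2.91, 3.32 and 2.99 log2 in DMSO and 1.36, 1.58 and 1.58 with KU-0063794 (log2 fold change -1.57, SE 0.09, adjusted p = 0.000419), 2 of these 3 above background, and 1 of its 2 probe sets above background moved the opposite way. Without the KU-0063794 array of spleen 1 there were 5 higher genes in this list, and without that of spleen 3 there were 6.

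Regulators of the cell cycle were mixed, with 12 of 41 tested cyclins, CDK inhibitors and E2F genes higher and 4 lower, 9 and 2 without the block. Cdkn1a, which encodes the CDK inhibitor p21, fell from 7.77, 7.75 and 7.90 log2 to 6.71, 6.92 and 7.16 (log2 fold change -0.87, SE 0.09, adjusted p = 0.0017). Ccnd2, cyclin D2, fell from 8.16, 8.36 and 8.13 log2 to 7.43, 7.66 and 7.39 (log2 fold change -0.72, SE 0.06, adjusted p = 0.0013). In the other direction, E2f7, an atypical repressor of the E2F family, rose by 0.91 (adjusted p = 0.00328). Ccnf, cyclin F, rose by 0.75 (adjusted p = 0.0013), and Rbl1, the pocket protein p107, by 0.74 (adjusted p = 0.00248). The groups of none of these 5 overlapped. The count of higher genes was 7 without the DMSO array of spleen 1 or the KU-0063794 array of spleen 1 or 2.

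Of 39 tested genes of the pentose phosphate pathway and nucleotide synthesis 13 were higher and 3 lower, with a median of 0.19. Without the block 2 were higher and none lower, and leaving out 1 DMSO or KU-0063794 array left 1 to 8 higher, 8 of them without the DMSO array of spleen 2 and 1 without the KU-0063794 array of spleen 3. Ppat, which commits to purine synthesis, rose by 0.54 (adjusted p = 0.00998), but not in the 6 arrays alone (adjusted p = 0.0626) or as the mean of its probe sets (adjusted p = 0.113). Of its 2 probe sets above background, 1 moved the opposite way. Of 49 ribosome biogenesis genes 11 were higher and none lower, with a median of 0.12 and 2 higher without the block. Leaving out the DMSO array of spleen 2 left 7, and leaving out any other DMSO or KU-0063794 array left 1 or 2. Gar1, of the snoRNA ribonucleoproteins that modify ribosomal RNA, rose from 6.16, 6.43 and 6.35 log2 to 6.71, 6.83 and 6.91 (log2 fold change 0.50, SE 0.07, adjusted p = 0.00495), without overlap. Myc, which drives many of these genes, was higher by 0.39 (adjusted p = 0.0175), a call lost in 5 of the 9 fits without 1 array and without the block (adjusted p = 0.115).

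Few genes of protein synthesis and respiration were called. Of 40 tested cytosolic ribosomal protein genes 1 was higher and none lower, with a median of 0.07. Of 57 mitochondrial ribosomal protein genes 1 was higher and 3 lower, none and 1 without the block, and no fit without 1 array kept more than 1 of the lower ones. Of 62 genes of the respiratory chain and ATP synthase 1 was lower. All 3 shares are below the 12.4% of all genes tested. Of 49 translation factor genes 2 were higher and 2 lower, with 0 to 1 and 1 to 2 left without 1 array and none and 1 without the block. Of 40 heat shock and proteasome genes 1 was lower, the chaperone gene Hsph1 (-0.56, adjusted p = 0.00888).

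In 5 lists on stress, degradation and interferon the share called was 14.6% to 31.0%, and went both ways. The 12.4% of all genes tested includes genes below background, which were seldom called, so no excess is read from these shares. In lysosome and autophagy 8 of 56 tested genes were lower and 3 higher, 4 and none without the block, and Atp6v1d, a subunit of the proton pump, fell by 0.67 (adjusted p = 0.00569). Without the DMSO array of spleen 1 or 3 or the KU-0063794 array of spleen 1, 3 lysosome and autophagy genes were lower, and 4 without that of spleen 3. In the antioxidant and iron list 7 of 29 were lower and 2 higher, 1 and none without the block, among them Hmox1, heme oxygenase (-0.59, adjusted p = 0.00542). Without the DMSO array of spleen 1 or 3 or the KU-0063794 array of spleen 1 or 2, 3 of these were lower, and 2 without that of spleen 3. In apoptosis and p53 targets 5 of 34 were lower and 3 higher, 3 and none without the block, and no fit without 1 array kept more than 2 higher. Of the lower ones Gadd45g, a growth arrest gene, fell by 0.80 (adjusted p = 0.00313; 0.0597 without the block). In the endoplasmic reticulum stress list 4 of 32 were lower and 2 higher, with 2 to 3 and 1 left without 1 array, and 1 and none without the block. Of 41 interferon response genes 4 were lower and 2 higher, 1 of each without the block. No lower one was left without the KU-0063794 array of spleen 1 or 3, and 2 without the DMSO array of spleen 1 or 3. Gbp2, an interferon-induced GTPase, rose from 5.76, 5.84 and 6.37 log2 to 6.96, 6.76 and 6.90 (log2 fold change 0.88, SE 0.13, adjusted p = 0.00606), without overlap.

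Several genes outside these lists were among the 20 largest changes in either direction. Anxa1, annexin A1, a regulator of inflammation, read 7.21, 6.19 and 6.78 log2 in DMSO and 5.48, 4.70 and 5.21 with KU-0063794 (log2 fold change -1.60, SE 0.08, adjusted p = 0.000273). Tmem40, a membrane protein gene, fell from 4.35, 4.85 and 4.63 log2 to 2.32, 2.90 and 2.77, with the smallest adjusted p of the named genes (log2 fold change -1.95, SE 0.07, adjusted p = 7.87e-05). Tubb2a, a beta tubulin, fell from 4.44, 3.44 and 4.56 log2 to 2.25, 1.98 and 2.56 (log2 fold change -1.88, SE 0.13, adjusted p = 0.000784). In these 3 genes every DMSO value lay above every KU-0063794 value. Niban1, a stress-induced gene, fell by 2.08 (adjusted p = 0.0013) with 1 of 3 KU-0063794 arrays above background, Trp53inp2, which acts in autophagy, fell by 1.75 (adjusted p = 0.0022), and Gsn, the actin-severing protein gelsolin, fell by 1.84 (adjusted p = 0.0027; 0.0692 without the block). Afp, the fetal serum protein alpha-fetoprotein, read 4.49, 4.02 and 4.44 log2 in DMSO and 2.35, 2.31 and 2.08 with KU-0063794, above background on all 6 arrays (log2 fold change -2.07, SE 0.20, adjusted p = 0.00168).

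Among the increases, Crip1, a small LIM domain protein, read 8.04, 8.63 and 8.36 log2 in DMSO and 9.32, 9.49 and 9.51 with KU-0063794 (log2 fold change 1.10, SE 0.10, adjusted p = 0.0013). Igfbp4, which binds insulin-like growth factors, rose from 3.84, 4.78 and 5.03 log2 to 5.52, 5.83 and 6.13 (log2 fold change 1.28, SE 0.16, adjusted p = 0.00372). Timp2, an inhibitor of metalloproteases, rose from 2.39, 2.90 and 3.73 log2 to 3.77, 4.20 and 4.96 (log2 fold change 1.30, SE 0.15, adjusted p = 0.00294; adjusted p = 0.179 without the block). The groups did not overlap in these 3 genes. Tent5a, a poly(A) polymerase, rose by 1.34 (adjusted p = 0.0017; 0.0868 without the block), and Depdc1b, a gene of the cell division machinery, by 0.99 (adjusted p = 0.0062).

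Of the 13 genes of CD8 T cell identity 5 were lower, Prf1 and Gzmb among them, and 1 higher, 1 and none without the block and 1 to 3 lower without 1 array. Their summed linear signal was 8045 to 8903 in DMSO and 7446 to 7847 in KU-0063794 cultures. Most of that sum is the signal of Gzmb, whose call was lost without any 1 array, and the sum without Gzmb was not taken. Markers of other cell types were few. Of 8 tested B cell markers 1 was higher, Jchain, the joining chain of secreted immunoglobulin, at 0.94, 5.38 and 3.12 log2 in DMSO and 2.18, 6.14 and 4.42 with KU-0063794 (log2 fold change 1.10, SE 0.13, adjusted p = 0.00331). The spread between spleens was larger than the change, the groups overlapped, and the call was lost without the block (adjusted p = 0.759) and with a random block (adjusted p = 0.556). Igha, the heavy chain of immunoglobulin A, was not on that list and rose from 1.70, 1.65 and 2.08 log2 to 2.27, 2.79 and 3.67 (log2 fold change 1.10, SE 0.19, adjusted p = 0.00927), without a call in the unblocked fit (adjusted p = 0.147) or in the 6 arrays alone (adjusted p = 0.0556). The defining B cell marker Cd79a lay below background on all 6 arrays, at 0.75 to 0.76 log2, as did Ms4a1, which encodes CD20. Ighm, the heavy chain of immunoglobulin M, was above background on all 6 arrays and did not pass. The summed linear signal of 11 B cell markers was 140 to 680 in DMSO and 192 to 672 in KU-0063794 cultures. That of 20 myeloid markers was 36.3 to 46.0 and 33.4 to 38.9, with 2 above background on every array, and 1 of 10 tested was lower. For 5 natural killer cell markers, of which Gzma alone was above background, it was 1848 to 3028 and 1581 to 1642. Of the 2 tested 1 was lower, Gzma (log2 fold change -0.57), and none without the block. Gzma is also on the granzyme list, and its call was lost in 4 of the 9 fits without 1 array. The sum for 7 markers of CD4 and regulatory T cells was 427 to 536 and 367 to 432, with 4 above background and 1 of 6 tested lower. Il2ra, Tnfrsf18, Ikzf2, Zbtb7b and Cd40lg of these markers are also on other lists used here. The sum is therefore not a measure of CD4 or regulatory T cells alone. The part of other cells in the results was not tested.

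KU-0063794 was also set directly against rapamycin, since the 2 inhibitors share complex 1 as a target and differ in structure and mode of binding. The doses differ, 1 uM and 20 nM. No gene passed (0.0%) in the limma fit, with a lowest adjusted p of 0.0587. Of 13278 genes 1329 had an unadjusted p under 0.05 in that fit, more than the 5% expected if none differed. The unadjusted 95% interval of the difference reached a median of 0.21 log2 to either side, so smaller differences would not be visible here. Much larger ones can miss the adjusted threshold too, as those of Mxd1, Timp2 and Lag3 below did. In other settings a few genes passed, namely 4 after quantile normalization, 3 after median centring, 3 with array weights, 75 with an intensity trend and 1 without the DMSO array of spleen 1. A p that misses the threshold does not show that the inhibitors act alike.

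Among the genes that fell most against DMSO, Gzmd differed by -0.76 (95% interval -1.47 to -0.05) between KU-0063794 and rapamycin, and Ifng by -0.02 (95% interval -0.41 to 0.38). With rapamycin Gzmd read 4.36, 3.01 and 1.81 log2 and Ifng 7.63, 7.57 and 6.55. Gzmg was above background on none of the KU-0063794 and 1 of the 3 rapamycin arrays, so its difference was not measured. Slc7a3 differed by 0.71 (95% interval 0.36 to 1.07), reading 2.19, 1.56 and 1.02 log2 with rapamycin, 1 of them below background. The genes nearest to a call, chosen after their values were seen, were Fgl2, Mxd1 and Ccn3, and all 3 were lower with KU-0063794. Mxd1 read 4.69, 3.63 and 3.93 log2 with rapamycin and 3.68, 2.56 and 3.04 with KU-0063794, a difference of -0.99 (95% interval -1.22 to -0.76, adjusted p = 0.0587). It was lower with KU-0063794 in all 3 spleens. Timp2 and Lag3 lay higher with KU-0063794 than with rapamycin, by 0.90 (95% interval 0.55 to 1.26) and 0.75 (95% interval 0.28 to 1.21), with adjusted p = 0.239 and 0.342. Aspm and Cenpf differed by -0.01 (95% interval -0.33 to 0.31) and -0.15 (95% interval -0.50 to 0.19).

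**Figure D4:**
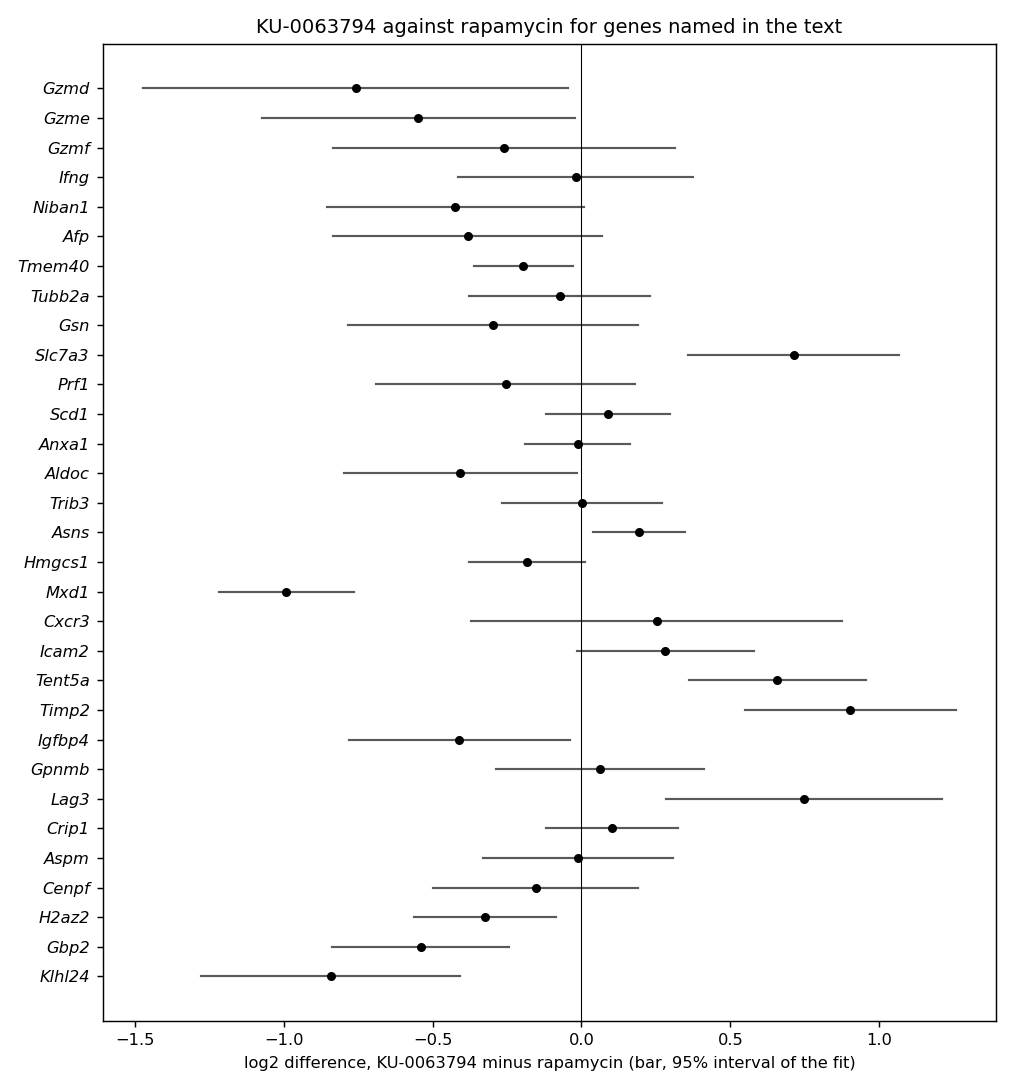
Log2 difference of KU-0063794 minus rapamycin (horizontal axis) for 31 genes, with points for the fitted difference and bars for its unadjusted 95% interval over 9 arrays. Mxd1 and Klhl24 lie lowest and Timp2 highest, and none of these passed after adjustment over 13278 genes.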

How the data were processed

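Total RNA of 9 CTL cultures was measured on 1 Affymetrix mouse array each, 3 per group. Each probe set has a log2 signal in the deposited table, made by the authors with Affymetrix Expression Console 1.3.1, per the submitters' processing notes. Background correction and normalization are not given in the sources used here, and the values were used as deposited. Array number limits the precision. Of 45037 probe sets other than controls, 34945 carried a single gene symbol; 932 with several symbols and 9160 not listed in the annotation were not analysed here by gene, so some genes of the lists are not reported. The symbols are those of the array annotation.

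Differences were fitted in limma 3.58.1 (R 4.3.3; lmFit and eBayes, all 9 arrays, group and spleen as fixed terms, 4 residual degrees of freedom, two-sided), with Benjamini-Hochberg adjustment over 13278 genes and a threshold of 0.05. The labels state 1 spleen per replicate. Deviations from group means correlated across genes positively for the 9 pairs of arrays of 1 spleen (r 0.35 to 0.53) and negatively for the 18 others (-0.41 to -0.08). The deviations of a group sum to 0, which ties these signs together. Other things shared by a replicate number were not tested. In data simulated on these genes, 39 of 67 changes of 0.5 log2, 62 of 67 of 1 and 66 of 66 of 2 were recovered, with 2 false calls. The simulated noise was normal and independent between arrays and genes, with additive spleen terms, as the fit assumes. No other genes were changed, a smaller share than the 12.4% called in the deposited values. The adjusted threshold depends on that share, so these recovery counts do not carry over directly. The false calls there do not measure the error rate in the deposited values.

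Genes, gene lists and tests were chosen with earlier results of these data known. Named genes were the 20 largest called changes each way, up to 4 called members of each list each way, a fixed panel, genes whose sequence is shown, and any gene called against rapamycin. Promoters were matched by symbol to RefSeq's GRCm38.p6 table for 10666 of the genes tested. Changes are differences of log2 values. The other settings tried are given in the closing section.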

Additional observations from a re-analysis of the deposited data

Results flagged for a closer look

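Signals outside the gene-level measurement also differed between KU-0063794 and DMSO cultures. Among 9160 probe sets that the annotation does not list, 708 lay above background, and in a fit of all 45037 probe sets 36 were higher and 46 lower with KU-0063794. Among 932 probe sets that carry several gene symbols, 442 lay above background, and 30 were higher and 20 lower. In neither kind did the share called among those above background exceed the 12.4% called over all genes tested. That 12.4% was adjusted over 13278 genes and includes genes below background. The genes of these probe sets were not analysed here.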

How the results depend on the processing

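Genes and counts of calls were recomputed under up to 25 other settings, while motif counts, marker sums and RNA quality values had none. The count of genes called against DMSO was 1644. It was 540 without the replicate block (303 higher, 237 lower) and 624 in the 6 arrays compared (302 higher, 322 lower). With 1 array or 1 spleen left out it ranged from 89 to 1393 (23 to 734 higher, 66 to 659 lower), and the lowest counts followed the loss of a whole spleen, with 89 without spleen 1, 474 without spleen 2 and 123 without spleen 3. The count of genes changed at least 2-fold, 104, was 62 without the block, 54 with the mean of all probe sets, and 53 to 131 with arrays or spleens left out. Against rapamycin the count was 0, but 4 after quantile normalization, 3 after median centring, 75 with an intensity trend, 3 with array weights, and 0 to 1 with arrays or spleens left out. Of 211 called genes named by the rule, 22 kept their call under all 25 settings, 127 with each array left out in turn, and 112 lost it without the block. Directions reversed in 28 of all gene-level values. With the most variable probe set of a gene these were Dnajc3 (0.16), Heatr1 (-0.10), Mrpl17 (0.14), Slc1a5 (0.13) and Srebf2 (0.069), and with the mean of all probe sets Uqcrq (0.00149). Pik3ip1 turned with quantile normalization (0.014) and array weights (0.00641), and Rptor with array weights (0.017). The others turned with an array or spleen left out, over which Pik3ip1 ranged from -0.12 to 0.15, Rptor from -0.12 to 0.11, Gzmc from -0.17 to 0.10, Il7r from -0.17 to 0.053, Srebf1 from -0.0501 to 0.028, Tbx21 from -0.074 to 0.15 and Eomes from -0.15 to 0.0020. The causes were not tested. With 3 spleens and 4 residual degrees of freedom, changes near 0.5 log2 can be missed, and signals near background show only bounds.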
